A study of Mus musculus with 6 samples.

Results

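The comparison describes how cells that still carried the fluorescent Oct4 reporter differed between day 3 and day 7 of a neural differentiation culture. It uses 4 of the 6 arrays of the series, chosen by their labels: 2 of the Oct4-Venus+ fraction at day 7 and 2 of the cells called epiblast stem cell-like (EpiSC-like) at day 3. All groups came from OLV2-1, a mouse embryonic stem cell (ESC) line with Venus knocked into the Oct4 (Pou5f1) locus, and the other 2 arrays hold undifferentiated ESC of that line, sorted as Venus+ and CD31+. Both SFEBq groups were grown as serum-free floating aggregates of quickly reaggregated cells. EpiSC-like cells were sorted as Oct4-Venus+ and Pecam1-, after trypsin, a recovery step in medium and staining for CD31, the Pecam1 protein. Day 7 cells were sorted as Oct4-Venus+ after EDTA in saline, and the labels name no Pecam1 gate for them. Stage, gate and handling therefore cannot be told apart in any result. Nothing in the labels gives the 2 arrays of one group separate cultures, and the spread behind every p-value may therefore be technical.

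Oct4 is a POU transcription factor of the naive and the primed pluripotent state and is switched off as cells commit to the neural lineage. In naive cells it works with a network of factors held up by LIF and STAT3, and in the primed epiblast with factors such as Pou3f1 and Otx2 under FGF and Nodal signals. The transcription factor HIF1 switches on genes of glucose use, blood vessel growth and collagen processing when oxygen is low. These are background facts, not results of these arrays.

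Each array gives a linear signal intensity for every probe set, and these were analysed as log2(signal + 16) for 18194 genes, each by its brightest probe set. Differences are log2 values of day 7 minus EpiSC-like with the standard error of a limma fit to all 6 arrays. Replicates correlated across genes with r = 0.976 for EpiSC-like cells and 0.978 for day 7. The highest signal followed the replicate number, at up to 36841 on replicate 1 arrays and at least 63296 on replicate 2 arrays, so differences within each number (the replicate 1 and replicate 2 sets) are given beside main results. The poly-A controls, RNAs spiked in before labelling, did not follow it. Their mean signal (geometric) was 142 and 28.5 on the EpiSC-like arrays, 143 and 219 at day 7, and 134 and 26.7 in ESC. The control level thus differs between the 2 groups in the replicate 2 set, and with it as a block limma passed 0 genes (smallest adjusted p = 0.166), while 2577 had an unadjusted p under 0.05. For the actin control the log2 difference of 3' over 5' probe sets, wider in shorter RNA, was 0.58 and 0.46 in EpiSC-like cells and 0.71 and 0.94 at day 7. That of Gapdh was -0.04 and -0.36 against -0.12 and -0.18. The part of RNA quality in the results below was not tested.

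The reporter's own gene differed between the sorted fractions by less than the spread between arrays of one fraction. Pou5f1 read 6244 and 9923 in the 2 EpiSC-like arrays and 6533 and 9062 at day 7, a log2 difference of -0.03 ± 0.39 (adjusted p = 0.985). The HMG-box partner of Oct4, Sox2, read 16284 and 15215 against 18018 and 22517, and the zinc finger factor Sall4 7454 and 8369 against 7669 and 8283. Of 15 core pluripotency genes, 0 passed the test, and their median log2 difference was -0.19 beside -0.02 over all genes. The widest difference among them was that of Lin28a, an RNA-binding repressor of let-7 maturation, which read 2356 and 4701 at day 3 and 2067 and 1216 at day 7 (-1.06 ± 0.45, adjusted p = 0.357). The difference was -0.19 and -1.94 in the replicate 1 and replicate 2 sets, so most of it lies in one set. Pecam1, the gene of the antigen gated out at day 3, read 401 and 177 there and 767 and 488 at day 7 (1.15 ± 0.51, adjusted p = 0.381). In bulk RNA such as this, fewer cells of a type and less RNA per cell cannot be told apart.

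4 genes rose and 3 fell between EpiSC-like cells and day 7 at a limma adjusted p under 0.05, which is 0.022% and 0.0165% of the genes tested, 0.0385% in all. Gad1 (NCBI gene 14415), the enzyme that makes the inhibitory transmitter GABA from glutamate, read 39.3 and 24.5 in EpiSC-like cells and 937 and 939.7 at day 7. Its rise of 4.33 ± 0.39 was the widest of the 7 at the main setting (4.11 and 4.56 in the 2 sets), and ESC stood between, at 259.9 and 112. Over the alternative settings described at the end the rise ran from 3.11 to 4.87. Ndrg1 (NCBI gene 17988), a cytoplasmic protein induced by low oxygen and by differentiation, rose from 293 and 174 to 3144 and 4037 (3.88 ± 0.34). Gadd45b (NCBI gene 17873), a stress-induced regulator of growth arrest and DNA repair, rose from 437 and 407 to 2866 and 2517 (2.63 ± 0.22). All day 7 arrays of these genes lay far above both EpiSC-like arrays. Serpinb1a (NCBI gene 66222), an inhibitor of neutrophil proteases, read 2.20 and 3.32 at day 3, 121 and 164 at day 7 and 181 and 122 in ESC (3.07 ± 0.28). Its difference ran from 1.62 to 5.26 over the alternative settings. Its means were under the brightness floor of the naming rule, and it is named after its values were seen because it completes the count.

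Gbx2 (NCBI gene 14472), a homeobox factor of the anterior hindbrain that naive cells also express under STAT3, had the widest of the 3 falls. It read 1173 and 1707 at day 3 and 102 and 93.3 at day 7, and fell by 3.65 ± 0.32 to below its ESC signals of 491 and 305. Myrf (NCBI gene 225908), a membrane-tethered transcription factor known from myelinating glia, fell from 1674 and 2147 to 242 and 228 (by 2.93 ± 0.26). Tnfsf11 (NCBI gene 21943), the cytokine RANKL, fell from 509 and 387 to 48.8 and 41.1 (by 2.92 ± 0.26). In both, the day 7 arrays lay below the ESC arrays as well, which read 679.5 and 911 for Myrf and 115 and 86.4 for Tnfsf11. The adjusted p of each of the 7 genes was 0.0495. Other probe sets of these genes moved the same way, by 3.14 to 3.74 for 4 further probe sets of Ndrg1, 0.76 and 3.27 for Gadd45b, 1.88 for Gad1 and -2.65 for Tnfsf11. The second, dim probe set of Serpinb1a stood at 0.23. The probe set that stands for Ndrg1 is of a type whose probes can also match other transcripts.

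**Figure D1:**
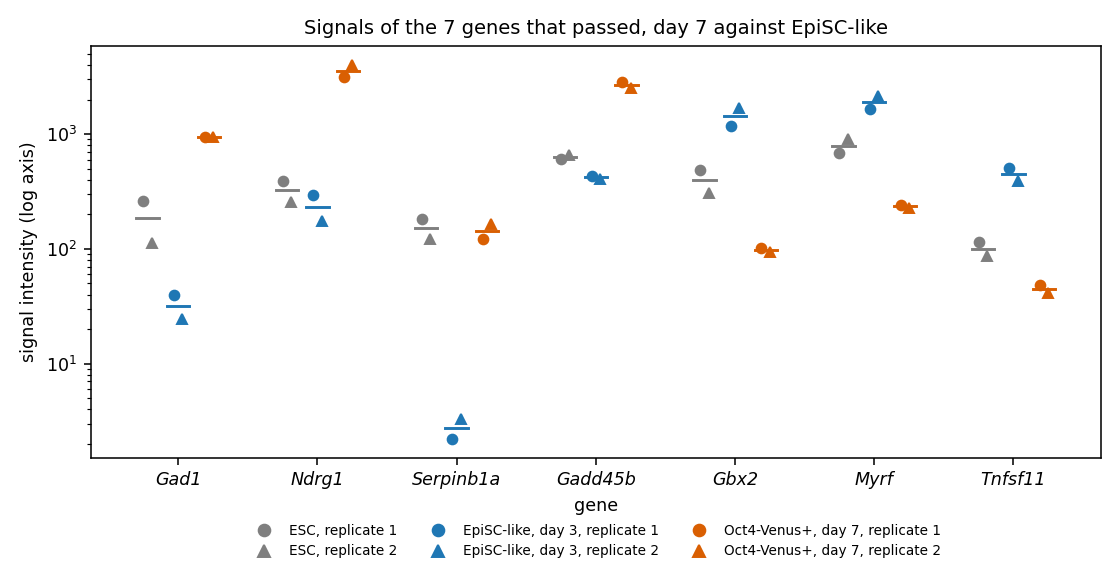
Signal intensity (log axis) of the 7 genes that passed, on each array of ESC (grey), EpiSC-like cells (blue) and day 7 Oct4-Venus+ cells (orange). Circles are replicate 1, triangles replicate 2 and bars group means. Day 7 and EpiSC-like arrays do not overlap in any of the 7.

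These calls lie just under the threshold. With the replicate number as a block limma passed 0 genes (smallest adjusted p = 0.124), although 3055 had an unadjusted p under 0.05, and 2564 had one in the fit without it. 0 passed without any 1 of the 6 arrays, with 1536 to 2545 genes at an unadjusted p under 0.05. Among the 9097 genes at or above the median of mean signal, 195 passed higher and 120 lower (2.14% and 1.32%), 5 of the 7 genes with them. Serpinb1a and Tnfsf11 were under that median and were not tested there. The filter uses the mean of all arrays, which a high level in 1 group itself raises, so these counts are no separate check of the 7. To describe gene groups, a gene is called separated where its lower day 7 value of signal + 16 was at least 2 times its higher EpiSC-like value, or the reverse. Of all genes 1.54% were separated higher at day 7 and 1.17% lower, and 7 of the 7 genes that passed were separated. With 2 arrays against 2 an exact two-sided permutation test cannot go below p = 0.333, so separation carries no test.

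Hypoxia response genes were the group with the most members separated higher at day 7: 14 of 27 measured, and 0 lower. Their median log2 difference was 1.13 (1.07 in the replicate 1 and 1.36 in the replicate 2 set), beside -0.02 over all genes. Of the 27, 1 passed over all genes, Ndrg1. Among the brighter genes 26 of the 27 were tested and 13 passed higher, but that filter uses the mean of all arrays, which a high day 7 level itself raises. The separated count was 10 with the mean of all probe sets of a gene. With any 1 of the 4 arrays left out it was 14 or 15, where it cannot fall below 14 by construction. The list was written with earlier results of these arrays known.

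Enzymes of glycogen and glucose use led the list after Ndrg1. Pygl, glycogen phosphorylase, read 244 and 322 in EpiSC-like cells and 1621 and 2135 at day 7 (2.66 ± 0.26, adjusted p = 0.0581). Pfkfb3, which makes the allosteric activator of phosphofructokinase, read 233 and 144 against 1435 and 1059 (2.64 ± 0.31, adjusted p = 0.0748). The collagen prolyl hydroxylase subunits P4ha2 and P4ha1 stood at 2.04 ± 0.29 and 1.79 ± 0.23, and Plod2, a collagen lysyl hydroxylase, at 1.61 ± 0.36. P4ha1 read 785 and 667 at day 3 and 2549.8 and 2544 at day 7, a gap wider than the spread of either pair.

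Secreted and regulatory members were separated too. Adm, the vasodilator peptide adrenomedullin, read 164 and 93.95 against 502 and 515 (1.90 ± 0.30). Vegfa, the main growth factor of blood vessels, read 285 and 307 against 768 and 845 (1.40 ± 0.22, adjusted p = 0.0863). Both day 7 arrays of each were above all 4 arrays of the other 2 groups, since ESC read 113 and 86.6 for Adm and 423 and 438 for Vegfa. The oxidoreductase of the endoplasmic reticulum Ero1a stood at 1.80, the ankyrin repeat gene Ankrd37 at 1.75, the circadian repressor Bhlhe40 at 1.64, the carbonic anhydrase Car12 at 1.42, the mitophagy gene Bnip3 at 1.32 and the HIF prolyl hydroxylase Egln1 at 1.13.

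Members that were not separated lay between 0.91 for Egln3, another HIF prolyl hydroxylase, and -0.75 for Hif1a. Hif1a encodes the oxygen-regulated subunit itself, which is mainly controlled at the protein level, and read 7506 and 6295 at day 3 against 4344 and 3830.3 at day 7 (adjusted p = 0.304). Its sign rests on the probe set, since the mean of all its probe sets gave 0.26. Known HIF targets were among these. Pdk1, a pyruvate dehydrogenase kinase, read 12086 and 12542 against 11321 and 10285 (-0.19, and 0.11 with the mean of its probe sets). Car9, a carbonic anhydrase of the cell surface, read 51.2 and 78.5 against 82.8 and 103. Of the 27 members 3 were below 0.

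**Figure D2:**
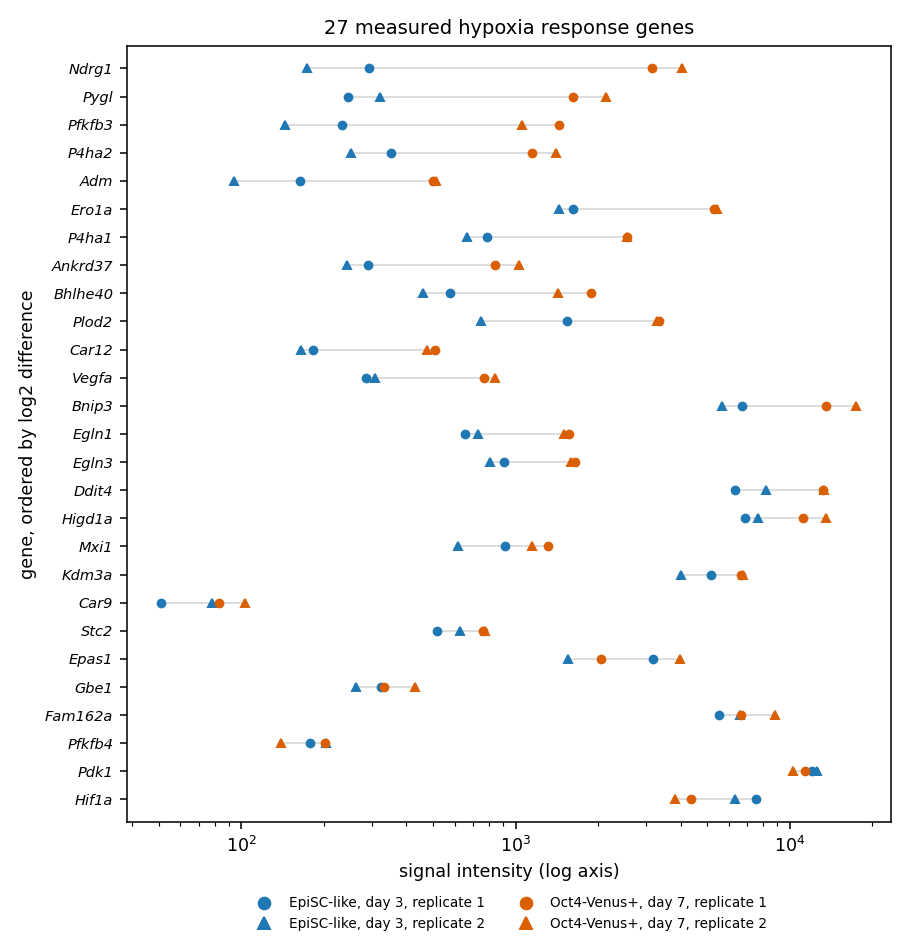
Signal intensity (log axis) of the 27 measured hypoxia response genes on the EpiSC-like (blue) and day 7 (orange) arrays, ordered by log2 difference. Circles are replicate 1 and triangles replicate 2. The upper 14 genes are separated by at least 2-fold. Hif1a at the bottom is lower at day 7 by its brightest probe set, while the mean of all its probe sets gave 0.26.

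Promoters are shown for the 3 separated members with the widest differences that have a single start site in the RefSeq table (GRCm38.p6) and a match, because 14 members of this group were separated the same way. Each window runs from 250 bases before the start to 50 after it, 5′ to 3′ on the gene's strand, with the core letters of the hypoxia response element in capitals. These are ACGTG and GCGTG, searched on both strands, so CACGT and CACGC mark the other strand. The windows are chr12:70227634-70227933 (minus strand) for Pygl, chr11:54100674-54100973 (plus strand) for P4ha2 and chr7:110627407-110627706 (plus strand) for Adm.
Pygl: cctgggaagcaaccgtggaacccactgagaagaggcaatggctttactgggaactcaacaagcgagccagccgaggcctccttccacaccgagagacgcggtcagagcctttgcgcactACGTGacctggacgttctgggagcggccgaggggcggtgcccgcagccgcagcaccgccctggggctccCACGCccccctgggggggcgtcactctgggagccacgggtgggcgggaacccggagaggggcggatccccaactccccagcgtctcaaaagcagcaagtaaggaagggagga
P4ha2: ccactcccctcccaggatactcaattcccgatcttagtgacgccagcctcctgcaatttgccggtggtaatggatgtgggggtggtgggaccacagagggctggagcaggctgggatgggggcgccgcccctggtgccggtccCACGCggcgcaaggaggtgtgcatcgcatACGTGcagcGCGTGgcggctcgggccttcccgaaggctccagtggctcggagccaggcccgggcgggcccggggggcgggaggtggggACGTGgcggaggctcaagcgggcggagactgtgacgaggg
Adm: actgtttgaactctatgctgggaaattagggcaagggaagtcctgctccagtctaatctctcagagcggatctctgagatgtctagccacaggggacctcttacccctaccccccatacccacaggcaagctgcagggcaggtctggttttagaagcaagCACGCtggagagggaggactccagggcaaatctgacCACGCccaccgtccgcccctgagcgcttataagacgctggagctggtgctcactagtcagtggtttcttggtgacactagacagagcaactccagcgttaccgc
The 3 windows hold 2, 4 and 2 matches. At least 1 match was found for 21 of the 23 list genes in the table, against 12628 of all 27025 genes (46.7%). It was found for 10 of 11 separated members and for 11 of 12 that were not separated. Epas1, Ndrg1, Plod2 and Bhlhe40 had no entry. A match is a description of the sequence and no evidence of binding.

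Glucose uptake and glycolysis genes stood slightly higher at day 7, with a median of 0.39 and 14 of 16 values above 0. 0 of 16 passed over all genes, and 2 were separated higher. Aldoc, the aldolase isoform of brain, read 720.0 and 726 at day 3 and 2712 and 2867 at day 7 (1.92 ± 0.27, adjusted p = 0.0803). Eno2, the neuronal enolase, read 25.9 and 56.4 against 179.6 and 203 (1.91 ± 0.33). The glucose transporter Slc2a1, itself a HIF target, read 21052 and 28167 against 23289.7 and 31965, groups that overlap. Of 23 respiratory chain subunits 0 were separated and the median was -0.04.

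Naive pluripotency genes were higher at day 7 than in EpiSC-like cells, with a median of 1.05 (0.70 and 1.28 in the sets) and 17 of 18 values above 0. 0 of the 18 passed over all genes and 2 were separated. Tcl1, a cofactor of the kinase Akt, read 925 and 668 at day 3, 3027 and 2997 at day 7 and 4123 and 6116 in ESC. Tfcp2l1, a transcription factor downstream of STAT3, read 820.2 and 465, then 2349 and 2321, against 4386 and 5672 in ESC. Their differences were 1.92 ± 0.29 and 1.89 ± 0.32 (adjusted p = 0.0863 and 0.0912). In both genes the day 7 arrays lay between the other groups without overlap.

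Klf4, a zinc finger factor of the naive network, had the widest value of the list, but its arrays disagreed on the size. It read 1413 and 450.0 at day 3 and 2307 and 4079.6 at day 7, a difference of 0.70 and 3.14 in the 2 sets (adjusted p = 0.206). Nanog, the homeobox factor of naive cells, read 5549.6 and 5573 against 10058 and 11456 (0.95 ± 0.26, adjusted p = 0.195). The maternal and germ cell factor Dppa3 stood at 1.40, Prdm14 at 1.14, Esrrb at 0.85 and Zfp42 at 0.59. Only Nr0b1, an orphan nuclear receptor, was below 0, at -0.28. Pecam1 is one of the 18, and cells rich in it had been gated out at day 3 only. The higher naive values at day 7 therefore cannot be told apart from the gate.

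The LIF-STAT3 list had a median of 0.67, with 0 of 14 members passed and 3 separated higher. One of the 3, Tfcp2l1, and the member Klf4 are also in the naive list, so the lists are not independent. Socs3, the feedback inhibitor of the LIF receptor, read 188 and 276 at day 3 and 1024 and 1840.0 at day 7, below its ESC signals of 4369.9 and 3849.7 (2.51 ± 0.35, adjusted p = 0.0803). The kinase gene Pim3 read 1845 and 2029 against 4623 and 4172 (1.18 ± 0.28). Stat3 itself read 341 and 189.9 against 467 and 266, a log2 difference of 0.45, and the receptor gene Lifr 919.7 and 327 against 908 and 1105.

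Formative and primed epiblast genes were lower at day 7, with a median of -0.73 (-0.62 and -1.03 in the sets) and 17 of 19 values below 0. 0 of 19 passed over all genes, while 3 were separated lower and 1 higher. Pou3f1, a POU factor of the epiblast, read 5624 and 5212 at day 3 and 1289 and 556 at day 7 (-2.65 ± 0.55, adjusted p = 0.121). Sall2, a zinc finger factor, read 1534 and 1095 against 424 and 222 (-2.02 ± 0.35), and the growth factor Fgf5 1009 and 1243 against 409 and 215 (-1.86 ± 0.33, adjusted p = 0.0987). The ESC arrays were lower still in all 3, at 263 and 89.7 for Pou3f1, 100.0 and 91.1 for Sall2 and 26.2 and 25.9 for Fgf5. The de novo methyltransferases Dnmt3b and Dnmt3a stood at -1.17 ± 0.32 and -1.28 ± 0.59, and Otx2, the homeobox factor of the epiblast and forebrain, at 0.14 ± 0.23. The separated higher member was Krt18, a simple epithelial keratin, which read 181 and 334 against 703 and 1651.

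**Figure D3:**
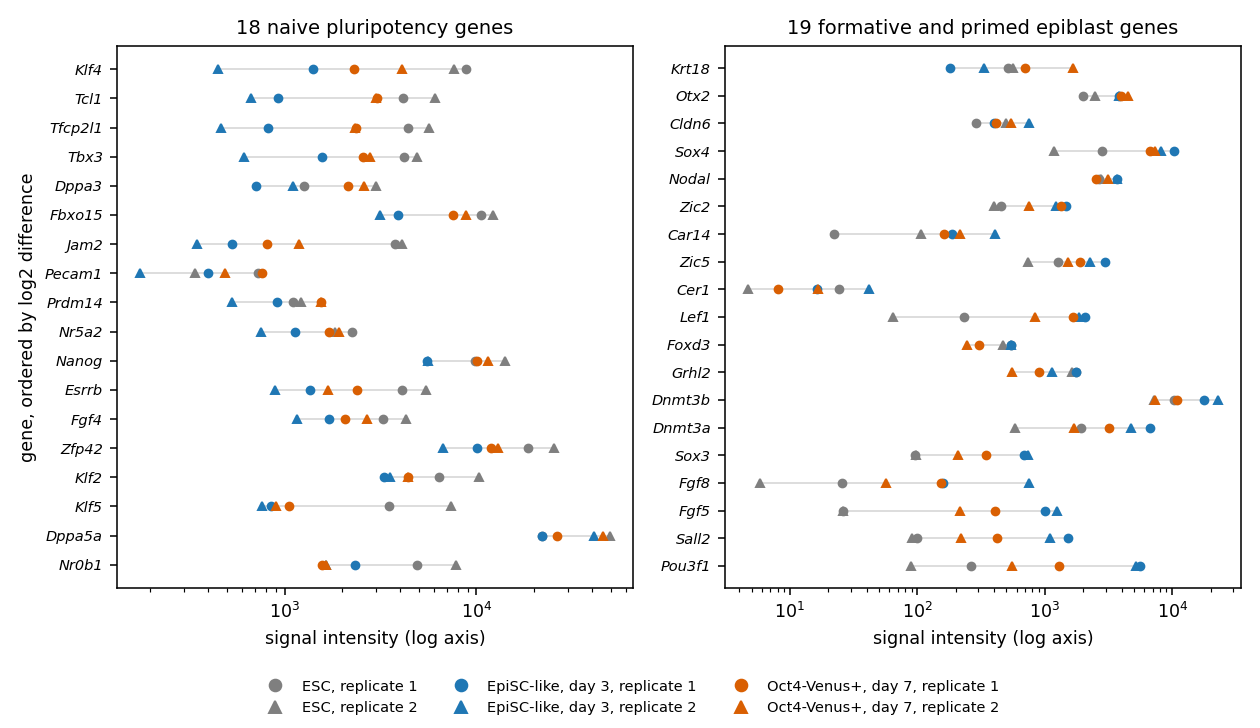
Signal intensity (log axis) of naive pluripotency genes (left) and of formative and primed epiblast genes (right) on each array of ESC (grey), EpiSC-like cells (blue) and day 7 cells (orange), with circles for replicate 1 and triangles for replicate 2. Genes are ordered by the log2 difference of day 7 minus EpiSC-like. Tcl1 and Tfcp2l1 at day 7 lie between ESC and EpiSC-like cells.

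Feedback and response genes of FGF-ERK signalling were lower at day 7, with a median of -1.02 (-0.80 and -0.83 in the sets) and 11 of 14 values below 0. 5 were separated lower and 0 higher, and 0 of 14 passed over all genes. The count was 3 with the mean of all probe sets of a gene and 2 with a pseudocount of 64. Myc, the growth-promoting transcription factor, read 756 and 538 at day 3 and 94.5 and 84.6 at day 7, with 908 and 579 in ESC (-2.63 ± 0.31, adjusted p = 0.0748). The receptor tyrosine kinase inhibitor Spry4 read 833 and 442 against 167 and 207 (-1.63 ± 0.40), and its relative Spry2 2464 and 1944 against 798 and 839 (-1.40 ± 0.24). For all 3 genes day 7 was the lowest of the 3 groups.

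Spred1, which restrains Ras, stood at -1.39 ± 0.28 and the ERK phosphatase Dusp6 at -1.31 ± 0.26. Il17rd, an inhibitor of FGF signalling, stood at -1.44 ± 0.34 with groups that did not overlap but were closer than 2-fold. On the other side 3 members of the list stood above 0, among them Etv5 at 0.49 and Phlda1 at 0.38. Among ligands, Fgf8 read 160.1 and 751 at day 3 and 154 and 56.7 at day 7, so that its difference of -1.72 came from one array pair (-0.05 and -3.40 in the sets). Of 14 ligands and receptors Fgf5 was the 1 member separated lower, and 0 passed.

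Other signalling pathways had few separated members. In the Nodal list this was the antagonist Lefty1, which read 9518 and 15176 at day 3 and 3844 and 2095 at day 7 (-2.08 ± 0.38, adjusted p = 0.0987). The ligand Nodal itself read 3661 and 3697 against 2501 and 3126. In the BMP list Id4, a helix-loop-helix inhibitor of neural progenitors, read 544 and 504 against 2640.3 and 2532 (2.27 ± 0.24, adjusted p = 0.0625). Its relative Id1, a direct BMP target, stood on the other side at -1.78 ± 0.39 (adjusted p = 0.135). Wnt8a, a ligand of the epiblast and primitive streak, read 575 and 1392 at day 3 and 147 and 92.2 at day 7 (-2.78 ± 0.44), and the factor Sp8 215 and 177 against 59.5 and 70.8 (-1.38 ± 0.25). In the Notch list the target Hey1 was separated higher (1.63 ± 0.36), and 0 of 12 Hedgehog genes were separated.

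Among axial patterning genes, Gbx2 and 3 genes of the Hoxb cluster were separated lower. Hoxb1, the earliest marker of one hindbrain segment, read 509.9 and 1544 at day 3 and 54.5 and 75.6 at day 7 (-3.50 ± 0.53, adjusted p = 0.0863), Hoxb2 599 and 1082 against 103 and 242 (-2.23 ± 0.47) and Hoxb5 88.8 and 119 against 4.27 and 33.4 (-1.91 ± 0.43). 3 of 20 Hox genes and cofactors were thus separated lower and 0 higher, with a median of -0.43. Only 7 of the 20 reached the median signal of all genes in either group, and Hoxb9 stood on the other side at 1.28 ± 0.60.

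Of 18 forebrain and eye field genes, 4 were separated higher and 0 lower, while the median was 0.07. The orphan nuclear receptor Nr2f1 read 21.97 and 39.8 at day 3 and 175 and 611 at day 7 (2.91 ± 0.54, adjusted p = 0.101). Its relative Nr2f2 read 29.2 and 18.6 against 74.9 and 185 (1.77 ± 0.44). In both, day 7 replicate 2 was well above replicate 1. Hesx1, a repressor of the anterior neural plate, read 55.1 and 56.5 against 194 and 179. Otx1 read 2.84 and 1.92 against 30.1 and 26.7, a dim signal. Only 4 of the 18 reached the median signal of all genes in either group. The eye field genes Six3 and Pax6 stood at -0.66 and -0.69.

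Retinoic acid genes had separated members on both sides. Cyp26b1, an enzyme that breaks retinoic acid down, read 14.9 and 5.17 at day 3 and 189 and 369 at day 7 (3.46 ± 0.40, adjusted p = 0.0748). The related Cyp26a1 read 22.3 and 105 against 66.7 and 545, groups that overlap. The retinaldehyde reductase Dhrs3 read 278 and 304 against 69.8 and 43.5 (-2.10 ± 0.27) and the receptor gene Rarb 109 and 136 against 29.9 and 39.5 (-1.45 ± 0.24). Of 15 measured genes 0 passed, 1 was separated higher and 2 lower.

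Neural progenitor genes were divided, with 1 of 18 separated in each direction and a median of 0.20 (-0.01 and -0.10 in the sets). Sox21, a repressor of the SoxB group, read 723 and 652 at day 3 and 2782 and 2219.5 at day 7 (1.83 ± 0.24, adjusted p = 0.0803). Prom1, the surface protein CD133 of progenitors, read 3163 and 3465 against 1086 and 879 (-1.74 ± 0.24). The early neural factors Sox1 and Sox3 stood lower, at -1.32 ± 0.33 and -1.35 ± 0.29.

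Proneural and neuronal genes differed between the day 7 arrays. Nhlh2, a helix-loop-helix factor of young neurons, read 19.7 and 1.13 at day 3 and 206 and 985 at day 7 (4.25 ± 0.70, adjusted p = 0.089). The microtubule protein of migrating neurons Dcx read 16.9 and 19.6 against 78.3 and 604, the neurofilament gene Nefm 124 and 123 against 299.9 and 1125 and the tau gene Mapt 28.2 and 21.7 against 83.2 and 149. Those 3 of 22 neuronal genes were separated higher, but the median was 1.17 in the replicate 2 set and -0.01 in the other. Gng3, a G protein subunit of neurons, was separated lower (-2.04 ± 0.35), as were the proneural genes Neurod1 (-2.14 ± 0.46) and Insm1 (-1.81 ± 0.36).

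Gad1 stood alone among the 11 measured genes of GABA metabolism, transport and Dlx control. Gad2, the second GABA-making enzyme, read 29.8 and 33.2 at day 3 and 21.3 and 38.6 at day 7. The forebrain interneuron factor Dlx2 read 44.6 and 35.2 against 26.6 and 27.2. The other 10 members had differences from -1.01 to 0.67, and 0 of the 10 passed or were separated. Only 2 of the 11 reached the median signal of all genes in either group, so a change in the dim members could be missed.

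Endoderm markers stood higher at day 7, mostly on one array. Of 18 markers 5 were separated higher and 0 lower, with a median of 1.08, but of 0.22 in the replicate 1 and 1.73 in the replicate 2 set. Ttr, a carrier of thyroid hormone made by visceral endoderm, read 1.48 and 23.8 at day 3 and 89.6 and 779 at day 7. The endoderm transcription factor Sox17 read 39.7 and 19.3 against 111 and 751, and fetal albumin Afp 13.5 and 0.741 against 64.3 and 471. The other 2 were Cited1 (2.93 ± 0.80) and the uptake receptor Cubn (2.84 ± 0.64), and none of the 18 passed (smallest adjusted p = 0.135). The summed signal of the list was 4745 and 5488 at day 3, 9891 and 17570 at day 7 and 9205 and 11711 in ESC. Much of it was the homeobox gene Rhox5, which read 8118 and 10536 in ESC and 8275 and 11739.8 at day 7. Rhox5 was itself higher at day 7 than at day 3, by a log2 difference of 1.30, so much of the rise in the sum is this 1 gene. Without day 7 replicate 1 the separated count was 15, and without replicate 2 it was 5. Leaving an array out cannot lower this count below 5, so the second value is no check of the separation. Of the defining endoderm factors, Gata4 read 36.8 and 55.1 at day 7 and Gata6 111 and 293.

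The same array was the higher one for basement membrane genes, of which 4 of 13 were separated higher, with medians of 0.28 and 1.04 in the sets. The type IV collagen chain Col4a1 read 418 and 322 at day 3 and 1853 and 7417 at day 7 (3.28 ± 0.61, adjusted p = 0.101). Its partner chain Col4a2 read 203 and 107 against 809 and 2598 (3.16 ± 0.57). The laminin chain Lama1 read 173 and 80.00 against 453 and 2415, and the linker protein Nid1 1094 and 378 against 2770.4 and 3444. Visceral and parietal endoderm are known sources of such matrix, and their part in these values was not tested. The day 7 replicate 2 array was also the higher one for Igfbp1 (45.8 and 946 against 3.40 and 4.72 at day 3), Srgn (511 and 3234 against 119 and 107) and Cited1 (59.3 and 461 against 10.03 and 7.62), which are among the 15 genes named for wide higher values.

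**Figure D4:**
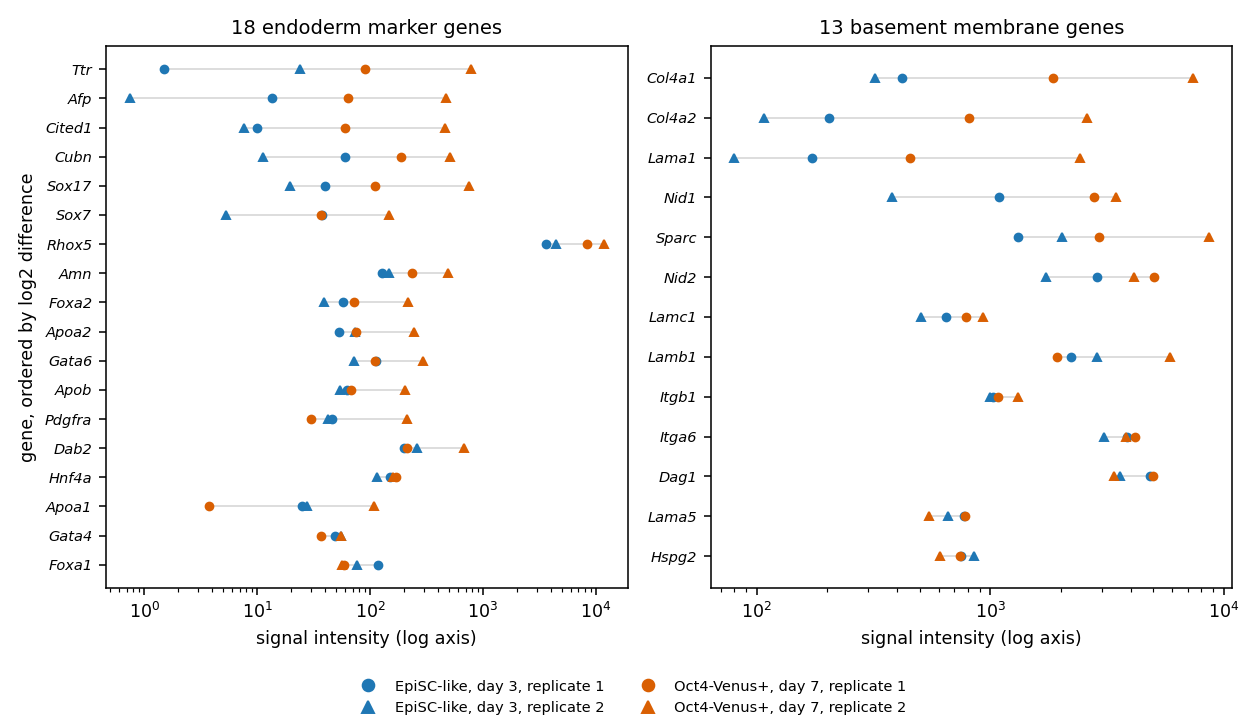
Signal intensity (log axis) of 18 endoderm markers (left) and 13 basement membrane genes (right) on the EpiSC-like (blue) and day 7 (orange) arrays, with circles for replicate 1 and triangles for replicate 2. For Ttr, Afp, Sox17 and Col4a1 the day 7 replicate 2 array stands far to the right of replicate 1.

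Trophoblast markers also stood higher at day 7, with a median of 0.58 (0.56 and 0.79 in the sets) and 11 of 13 values above 0, and 0 passed. Of the 13, 3 were separated higher and 0 lower: Krt18 (above), the imprinted factor Ascl2 (57.2 and 16.04 against 242 and 198) and Gata3 (2.36 and 5.01 against 30.8 and 48.7), while the defining factor Cdx2 read 7.55 and 52.8 at day 7. Their summed signal was 4282 and 3024 at day 3 and 6179 and 6754 at day 7. Of 15 blood and endothelial markers 11 were above 0, with a median of 0.19, and 1 was separated higher, Vwf (33.4 and 36.9 against 93.7 and 142), and 1 lower, Cd34 (179.9 and 150.2 against 36.8 and 55.7), with the leukocyte marker Ptprc at 12.8 and 20.2 at day 7. Primitive streak, germ cell and neural crest lists had 0 separated members of 13, 12 and 15. Only 2 of the 13 streak and 5 of the 15 neural crest markers reached the median signal of all genes in either group. A change in their dim members could therefore be missed.

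The fibroblast and mesenchyme list had 3 members separated lower. Tagln, an actin-binding protein of smooth muscle, read 327 and 835 at day 3 and 13.6 and 29.1 at day 7 (-3.88 ± 0.54, adjusted p = 0.0803). The smooth muscle actin Acta2 read 453 and 811 against 195 and 193 (-1.57 ± 0.32) and the collagen chain Col1a2 233 and 218 against 49.7 and 43.4 (-1.95 ± 0.34). The other 12 were not separated, and the median of the 15 was -0.09. The summed signal of the list was not lower at day 7, at 12982 and 10585 at day 3 and 15005 and 17940 at day 7.

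Stress lists had at most 1 separated member each. Of Gadd45b, its relatives and the interacting protein gene Gadd45gip1, Gadd45b was the 1 of 4 to pass. Gadd45a read 2946 and 3851 against 2834 and 3208, and Gadd45g 1012 and 1244 against 822 and 722. Of 16 p53 targets 0 were separated and the median was -0.25. The integrated stress factor Ddit3 was the separated member of the ATF4 list (227 and 278 at day 3 and 787 and 1034 at day 7, 1.78 ± 0.28), whose median was -0.16. Immediate early genes are known to respond to cell dissociation, which differed between the groups. Ier3, a survival gene, was separated higher (558 and 433 against 1711 and 2371, 2.00 ± 0.27), while Fos read 980.3 and 949.5 against 949 and 1054 and Egr1 2683 and 1814 against 1482 and 1179.5. The median of the 22 was 0.04, with 12 values above 0 and 10 below.

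3 of 18 imprinted genes were separated higher, Ascl2, the zinc finger gene Plagl1 (309 and 171 at day 3, 1251 and 1303 at day 7) and the cyclin kinase inhibitor Cdkn1c (525 and 567 against 1386 and 1513), with a list median of 0.07. S and M phase genes had a median of -0.08 and ribosomal protein genes of 0.19, with 0 separated members in either. Cholesterol synthesis genes had 15 of 17 values above 0, a median of 0.18 (0.49 and 0.03 in the sets) and 0 separated. Of 23 axon guidance genes 3 were separated lower, the ephrin Efnb2 (-1.36 ± 0.37) and the semaphorins Sema3c (-1.83 ± 0.41) and Sema3e (-1.70 ± 0.46). The lists of BCL2 family, DNA methylation, and cadherin and claudin genes had 0 separated members.

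The remaining wide differences by the naming rule belonged to none of these lists. Wt1, a zinc finger factor of kidney and gonad, read 995 and 979 at day 3 and 119.8 and 55.5 at day 7 (-3.35 ± 0.69). The GDNF coreceptor Gfra1 read 649 and 563 against 54.7 and 104 (-2.75 ± 0.31, adjusted p = 0.0678), and the secreted neuronal factor Ndnf 975 and 1254 against 138 and 183 (-2.68 ± 0.27, adjusted p = 0.0585). Pxdc1 stood at -2.72, the microfibril gene Mfap2 at -2.69, the immunoproteasome subunit Psmb8 at -2.55 and Serpinf1, a secreted serpin, at -2.52. On the higher side the homeobox gene Crxos, transcribed in early embryos, read 148 and 125 against 750.5 and 1614 (2.88 ± 0.50).

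**Figure D5:**
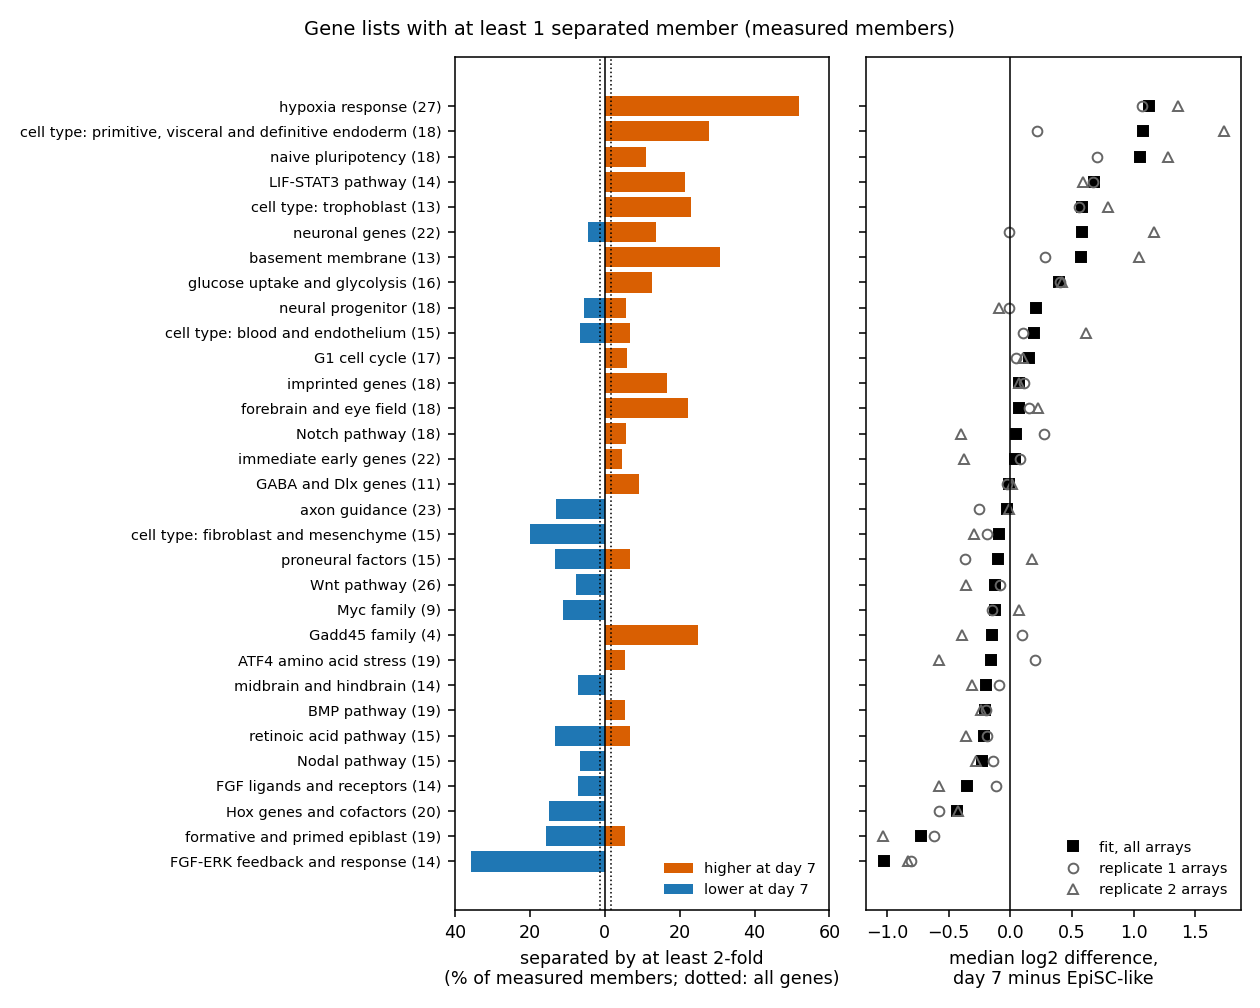
Gene lists with at least 1 separated member, with their measured members in brackets. Left, percent of members separated by at least 2-fold higher (orange) or lower (blue) at day 7, with the shares over all genes as dotted lines (1.54% and 1.17%). Right, the list's median log2 difference over all arrays (black square) and in the replicate 1 (circle) and replicate 2 (triangle) sets. Hypoxia response (14 of 27) has the widest orange bar and FGF-ERK feedback (5 of 14) the widest blue one.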

How the data were processed

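The deposited values are signal intensities per probe set on a linear scale. They came from Affymetrix Expression Console (version 1), per the submitters' processing notes. Its algorithm and the genome build are not given in the sources used here. On every array the mean after trimming 2% at each end was 500.00, a common scale set before the values were deposited. Of 45101 probe sets, 64 controls were left out, 34945 had 1 gene in the platform table, 932 several and 9211 none. The last count includes controls without a gene. The probe set with the highest mean log2(signal + 16) stood for its gene, which gave 18194 genes. A model of 3 group means over the 6 arrays was fitted in limma (version 3.58.1, under R 4.3.3) with eBayes. Its p-values were adjusted by Benjamini-Hochberg over all genes, with no filter. It had 3 residual degrees of freedom. Detection calls were not used here, and the number of arrays limits the precision.

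The genes and the 44 lists (758 entries, 48 of them not measured) were chosen with earlier results of these data known, so no list was tested. Named are the markers given for the comparison, Pou5f1 and Pecam1. Also named are the 15 widest differences in each direction, first those that passed and then separated genes, whose higher group mean reached the median gene (clone names left out), and members of each list as values. Deviations of same-numbered arrays from their group means correlated with r = 0.097 between EpiSC-like and day 7 across genes. This r was 0.28 between ESC and EpiSC-like and 0.079 between ESC and day 7. The labels name no shared batch, and the main fit has no block. Alternatives were other pseudocounts, filters, scalings, blocks, probe set rules and each array left out.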

Additional observations from a re-analysis of the deposited data

How the results depend on the processing

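The number of calls depended on the setting. The 7 genes that passed kept their direction under all 15 or 16 alternatives that held them. All 7 were separated by at least 2-fold at the main setting, which makes a turned sign unlikely. The kept direction is therefore no support for the calls. The 4 arrays alone and either ESC array left out gave the same fit, so these alternatives are not separate checks. No gene passed with a pseudocount of 1, quantile normalization, the replicate block, the spike-in block (arrays with low poly-A controls, ESC and EpiSC-like replicate 2, against the rest) or the 4 arrays alone (0 higher and 0 lower, smallest adjusted p from 0.0582 to 0.166), nor without any 1 array (0 to 0, smallest adjusted p from 0.0582 to 0.448). A pseudocount of 64 gave 123 higher and 83 lower, genes at or above the 25th percentile 89 and 55, those at or above the median 195 and 120, and median centring 5 and 5. Genes separated by at least 2-fold numbered 473 higher and 426 lower with a pseudocount of 1, 141 and 96 with 64, and 136 and 87 at or above the median. Without 1 array they ranged from 382 to 830 higher and 399 to 630 lower, where a group of 1 array separates more easily by construction. No separated count without 1 array, for all genes or for a list, can therefore fall below that of the main setting. Separated FGF-ERK genes numbered 2 with a pseudocount of 64 and 3 with the mean of probe sets. Endoderm markers numbered 1 with a pseudocount of 64, 0 at or above the median and 5 to 15 without 1 array. Forebrain genes numbered 2 with a pseudocount of 64 and 0 at or above the median. Hox genes numbered 0 at or above the median and 3 to 5 without 1 array. The formative median ranged from -1.09 to -0.71. Signs turned for the following genes, none of which passed, and the cause was not tested. With the mean of all probe sets Hif1a stood at 0.26, Pdk1 at 0.11, Gad2 at 0.43 and Ptprc at -0.22. With the spike-in block Pou5f1 stood at 0.34, Gadd45gip1 at 0.32, Gadd45a at 0.060, Epas1 at -0.16 and Fos at -0.20. Median centring gave -0.0087 for Fos and -0.047 for Sall4. Without 1 array Pou5f1 ranged from -0.37 to 0.30, Sall4 from -0.070 to 0.10, Gad2 from -0.35 to 0.20, Cdx2 from -1.24 to 0.30, Epas1 from -0.15 to 0.87, Gata4 from -0.36 to 0.070 and Ptprc from -0.084 to 0.47. Slc2a1 ranged from -0.064 to 0.39, Fos from -0.023 to 0.13, Gadd45a from -0.35 to 0.033, and Gadd45gip1 from -0.73 to 0.44. 2 arrays a group limit every value here.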
